A study of Mus musculus with 6 samples.

Results

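The genes described here are 7 genes of the GABA synapse. They are Gad1 and Gad2, which encode the glutamate decarboxylases that make GABA, and Slc32a1, which encodes the transporter that loads GABA into synaptic vesicles. They also include Gabra2 and Gabra4, which encode alpha subunits of the GABA-A receptor, Gphn, which encodes the scaffold protein gephyrin, and Gabbr1, which encodes a subunit of the GABA-B receptor. Members were found by their gene identifiers in the per-library lists of splicing and transcript-end events, and 7 of the 16154 listed genes were thus taken. Together they carried 44 of 132823 distinct events. An event is a place where transcripts assembled from the reads of a library start, end or differ in splicing.

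RNA of the nucleus accumbens (NAc), which lies in the ventral striatum and belongs to the reward circuit, was sequenced from adult male C57BL/6N mice that had been trained in conditioned place preference (CPP), in which an animal learns to link a compartment with an injection. The morphine group (3 libraries) was trained with intraperitoneal morphine in sessions that alternated with saline, and the saline group (3 libraries) with saline injections. The series description gives more mice than libraries per group, whereas the study's figure text gives 1 mouse per library, so pooling could not be settled, and p-values measure only the spread between these libraries. The comparison asked whether the assembled transcripts of these genes differed between the groups. The lists give no expression level for these genes, and a transcript missing from a list may still have been present in the tissue. In such bulk RNA, fewer cells of a type and less RNA per cell cannot be told apart.

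GABA is the main inhibitory transmitter of the brain and is the transmitter of the striatal projection neurons themselves. Released GABA opens GABA-A receptors, which are chloride channels of several subunits held under the release site by gephyrin, and acts more slowly through GABA-B receptors, which couple to G proteins. Gephyrin also takes part in the synthesis of the molybdenum cofactor outside synapses, and its messenger RNA is known for many alternative exons. Gabbr1 is known for separate promoters that give receptor forms with and without sushi domains at the outer end of the protein.

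Over all genes the lists held 58195, 54660 and 57118 events in saline libraries 1, 2 and 3. In morphine libraries 1, 2 and 3 they held 62209, 60466 and 56882. Relative depth was recovered from the ratio of read count to FPKM (fragments scaled to transcript length and sequencing depth) in the deposited table of long non-coding RNAs. In the same order, depth was 1, 1.07 and 1.37 in saline and 1.2, 1.59 and 1.285 in morphine. The part of depth in the counts of events was not tested. All 9 genes taken as markers of striatal projection neurons were listed in the 6 libraries. Markers of other classes were also listed in all 6 libraries, namely 3 of 3 of cortical excitatory neurons, 3 of 3 each of oligodendrocytes, astrocytes and microglia, 4 of 4 of interneurons and 2 of 3 of the choroid plexus. Since a listed gene has no level, the part of these cell types in the events was not tested.

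Of the 44 events, 32 were transcript starts (20) or ends (12), 4 were skipped exons or exon blocks, 2 were retained introns and 6 were alternative exon ends. In all, 15 events (34.1%) were listed in all 6 libraries and 18 (40.9%) in only 1. Over all genes these shares were 20.5% and 50.5%, and no test was made of the difference. The classes were mixed differently, as starts and ends were 72.7% of the events of the 7 genes and 57.2% of all events. Among starts and ends alone, 43.75% were listed in all 6 libraries for the 7 genes and 29.8% over all genes. The part of the class mix in the difference was not tested. Events at annotated positions of their own gene made up 26 of the 44 (59.1%), against 79.1% of the events of all genes. All 15 that were listed in every library were among the 26. A start or end counted as annotated by its splice-side position (the inner end of its exon), also where this belonged to an inner exon. Of the 32 starts and ends, 21 were annotated in this sense. Only 15 of the 32 had both the outer and the splice-side position of an annotated first or last exon. The 8 events on the gene's own strand at positions that were not annotated were listed in 1 to 3 libraries each. The other 10 events lay on the strand opposite to the gene, and each was listed in 1 or 2 libraries.

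**Figure D1:**
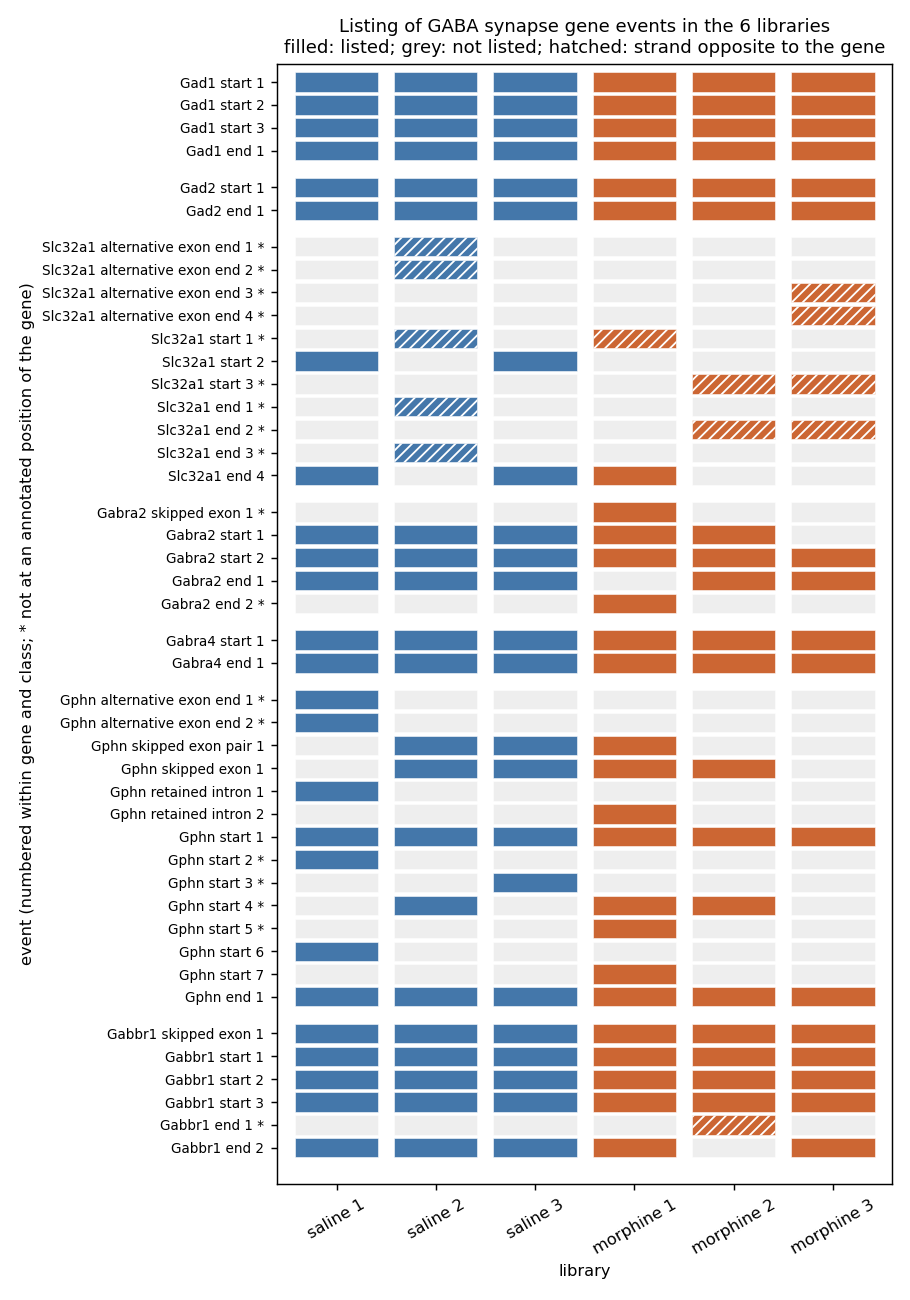
Listing of the 44 events (rows, grouped by gene) in the 6 libraries (columns), filled where an event was listed and grey where it was not. Rows of Gad1, Gad2 and Gabra4 are filled throughout, those of Slc32a1 and Gphn are mostly broken, and hatched cells mark the 10 events on the opposite strand.

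**Figure D2:**
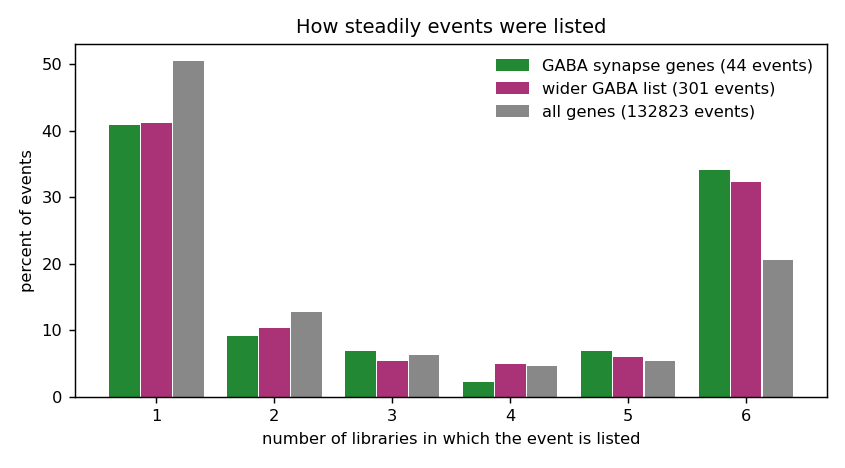
Percent of events (vertical axis) by the number of libraries that listed them (horizontal axis), for the 7 GABA synapse genes, a wider list of GABA genes and all genes. The bar at 6 libraries reaches 34.1% for the 7 genes and 20.5% for all genes.

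The enzymes of GABA synthesis showed the same events in every library. For Gad1 (ENSMUSG00000070880, chr2:70553072-70602014, plus strand, GRCm38), 4 events were listed in each of the 3 saline and 3 morphine libraries. They were 3 transcript starts and 1 transcript end. The starts lay at 70562042, 70562899 and 70563442, so that the second was 857 bases and the third 1400 bases downstream of the first. All 3 had the outer and the splice-side position of an annotated first exon, and these exons were 291, 304 and 469 bases long. The end lay in the annotated last exon of 1392 bases. Of 7 annotated positions at which a Gad1 transcript starts, the other 4 were listed in no library.

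Gad1 carried no skipped exon in any list. Alternative exons of Gad1 are known from the embryonic brain, and the annotation holds one of 80 bases at chr2:70584420-70584499 in the transcript Gad1-203, which is annotated as a target of nonsense-mediated decay. In all 6 libraries, 0 events touched this position. For Gad2 (ENSMUSG00000026787, chr2:22622205-22693874, plus strand), 2 events were listed in each library of both groups, a start at 22622205 and an end at 22693874. Both had the exact positions of the annotated transcript Gad2-201.

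Of the receptor subunits, Gabra4 (ENSMUSG00000029211, chr5:71569749-71658308, minus strand) was as steady. Each of the 6 libraries listed 2 events, a start at the annotated position 71658308 and an end at 71569734, which was 15 bases beyond the annotated end of the gene. The outer position of this end was the same base in all 6 libraries. How far such positions come from the reads or from an annotation used in assembly was not tested. The groups thus had identical lists for Gad1, Gad2 and Gabra4.

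Gabra2 (ENSMUSG00000000560, chr5:70957597-71095849, minus strand) had 5 events, of which only 1 was listed in all 6 libraries. Saline libraries 1, 2 and 3 listed 3 events each, and morphine libraries 1, 2 and 3 listed 4, 3 and 2. The event in all libraries was the annotated start at 71095849, whose first exon of 275 bases ended at 71095575. The other start used the splice-side position 71094961 of the annotated transcript Gabra2-206. It was listed in the 3 saline libraries and in morphine libraries 1 and 2, but not in morphine library 3. Its outer position varied between 3 values, so that the first exon was 490 to 889 bases long, longer than the annotated one. One of these values was 71095849, the outer position of the start in all libraries. That form of 889 bases thus began at the same base and ran on past 71095575.

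Morphine library 1 stood apart from the other libraries in Gabra2. It alone listed a skipped exon of 141 bases at chr5:71094961-71095101, which shares its inner position with the start event at 71094961. It alone lacked the end in the annotated last exon (splice-side position 70962098), and listed an end at splice-side position 71074237. That position was 17735 bases from the nearest annotated splice-side exon boundary of the gene, with outer transcript ends not counted. The end in the last exon was listed in the other 5 libraries with the outer position 70961057, which was 4 bases from an annotated transcript end.

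Gabbr1 (ENSMUSG00000024462, chr17:37045966-37075067, plus strand) had 6 events, with 5 in each of the 6 libraries. Transcript starts at 37045966, 37046568 and 37050631 were listed in all libraries, and each had the exact outer and splice-side position of an annotated first exon. The second start was 602 bases and the third 4665 bases downstream of the first. The third is the start of the annotated transcript Gabbr1-203, which begins in a longer form of exon 6 of Gabbr1-201. The start at the annotated gene start and the starts further within the gene were therefore listed side by side in every saline and every morphine library.

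A skipped exon of Gabbr1 was the only exon skipping event of the 7 genes that all 6 libraries listed. It is exon 7 of Gabbr1-201 and exon 2 of Gabbr1-203, at chr17:37054131-37054265, is coding over its whole length, and holds 135 bases or 45 codons. In the annotation it is skipped in Gabbr1-208. Its sequence is shown because this exon was listed as skipped in every library. Here and in the other exon sequences, capitals mark the exon, lower case marks 15 bases of each neighbouring exon in the spliced transcript, and sequences are from the GENCODE M21 transcripts on GRCm38 (plus strand, 5′ to 3′).
Gabbr1 exon 7: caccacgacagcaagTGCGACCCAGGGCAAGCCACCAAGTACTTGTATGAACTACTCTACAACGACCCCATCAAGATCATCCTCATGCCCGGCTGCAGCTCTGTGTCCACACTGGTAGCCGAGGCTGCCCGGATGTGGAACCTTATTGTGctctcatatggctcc
The exon length is a multiple of 3, so inclusion and skipping keep the same reading frame. Another annotated cassette exon of Gabbr1, of 151 bases at chr17:37067214-37067364, was listed as skipped in 0 libraries.

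The transcript end of Gabbr1 at the annotated position 37075067 was listed in 5 libraries and not in morphine library 2. That library listed in its place an end on the minus strand at chr17:37047915-37048197. Over all genes, a library's list for a gene always held at least 1 start and 1 end. Where an end on the opposite strand was listed (2577 pairs of gene and library), the list also held an end on the gene's own strand in only 2.10% of pairs. For starts it was 7.51% of 1972 pairs. A missing end of Gabbr1 in morphine library 2 therefore goes with the listing of an opposite-strand end, and its absence from the transcripts was not tested.

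Gephyrin had the most events. For Gphn (ENSMUSG00000047454, chr12:78226379-78684772, plus strand), 14 events were listed, 2 of them in all 6 libraries and 9 in only 1. Saline libraries 1, 2 and 3 listed 7, 5 and 5 events, and morphine libraries 1, 2 and 3 listed 8, 4 and 2. The saline mean was 5.67 ± 1.15 and the morphine mean 4.67 ± 3.06 (SD, n = 3). The groups overlapped, and the difference of -1 was smaller than their spread (p = 0.8 in a two-sided exact permutation test). The events of all libraries were the start at 78226655, which was 2 bases from an annotated start, and the end in the annotated last exon at 78684767.

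Exon skipping in Gphn concerned the coding region between exons 7 and 11 of the annotated transcript Gphn-201. An exon of 108 bases or 36 codons at chr12:78493950-78494057, exon 8 of Gphn-202, was listed as skipped in 4 libraries, saline 2 and 3 and morphine 1 and 2. A block of 2 exons, exons 9 and 10 of Gphn-201, was listed as skipped together in 3 libraries, saline 2 and 3 and morphine 1. These exons lie at chr12:78522898-78522954 (57 bases) and chr12:78532657-78532698 (42 bases). Saline library 1 and morphine library 3 listed neither event. The 3 exons are shown because they are the annotated exons that were listed as skipped in gephyrin messages.
Gphn-202 exon 8: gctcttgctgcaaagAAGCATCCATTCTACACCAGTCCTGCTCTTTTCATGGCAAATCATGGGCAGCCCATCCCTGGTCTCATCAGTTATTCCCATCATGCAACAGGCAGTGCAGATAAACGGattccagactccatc
Gphn-201 exon 9: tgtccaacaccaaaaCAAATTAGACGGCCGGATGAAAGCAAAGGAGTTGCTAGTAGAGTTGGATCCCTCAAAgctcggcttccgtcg
Gphn-201 exon 10: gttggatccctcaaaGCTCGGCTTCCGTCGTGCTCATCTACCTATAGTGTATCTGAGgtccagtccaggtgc
All 3 lengths are multiples of 3 (36, 19 and 14 codons), and all 3 exons are coding throughout. Gphn-202 holds the exon of 108 bases and lacks exons 9 and 10 of Gphn-201, whereas Gphn-201 lacks the former and holds the latter.

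The annotation of the 7 genes holds 6 single cassette exons, counted where another transcript of the gene joins the same neighbours directly. Of these, the exons in Gabbr1 and Gphn just described were listed as skipped, which is 2 of 6, and the other 4 were listed in 0 libraries. Over all listed genes 34.5% of 14981 such exons were listed in at least 1 library. Both listed exons had a length that is a multiple of 3, and the 4 others (80, 151, 68 and 178 bases, in Gad1, Gabbr1 and Gabra2) had not. The same split was not counted over all genes, and a link of exon length with listing was not tested.

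Starts inside Gphn differed from library to library. Besides the annotated start, 6 starts were listed, all of them downstream of exon 8 of Gphn-201. Of these, 2 ended at annotated exon boundaries, the end of exon 13 of Gphn-201 in saline library 1 (78609237) and the end of exon 21 in morphine library 1 (78669888). The other 4 ended in introns 8 and 10. Their assembled first exons were long, with 10345 (78516734), 11607 (78522670) and 22890 bases (78559122), and 704 to 34298 bases at 78560422. The longest began at 78526125 and so ran over the whole of exon 10. Whether such exons come from unspliced RNA was not tested. The splice-side position 78560422 in intron 10, 2434 bases before exon 11, was the only one that recurred. It was the inner end of a start in saline library 2, morphine library 1 and morphine library 2. In saline library 1 it was an end of an alternative exon of 43640 bases. It was thus found in 4 libraries, 2 of each group, although it is no annotated exon boundary of Gphn.

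Retained introns of Gphn were listed in 1 library each. Intron 17 (10197 bases) was listed as retained in saline library 1, and intron 22 (2323 bases) in morphine library 1. These libraries had the most retained introns of their group over all genes, 7925 in saline library 1 (5435 and 5409 in saline libraries 2 and 3) and 9534 in morphine library 1 (7291 and 6432 in morphine libraries 2 and 3). The part of this in the Gphn events was not tested.

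**Figure D3:**
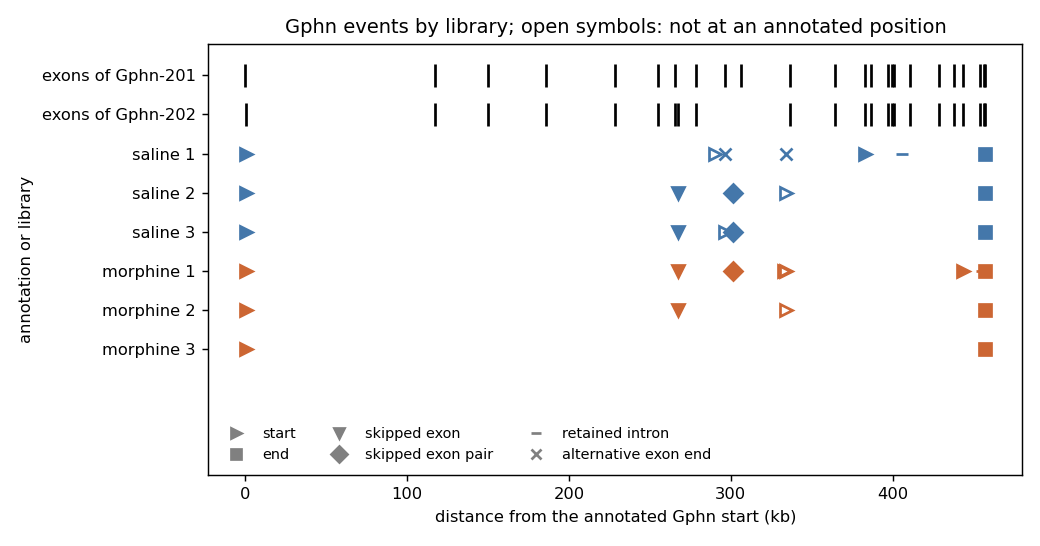
Events of Gphn in each library (rows) by distance from the annotated gene start (horizontal axis, kb), with the exons of 2 annotated transcripts above. The start and end are filled in all 6 libraries, and skipped exons appear in 4 of them. Open triangles mark starts that are not at an annotated position, and crosses mark alternative exon ends. The retained intron of morphine library 1 lies partly under its end symbol.

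Slc32a1 was the least steady of the 7 genes. For Slc32a1 (ENSMUSG00000037771, chr2:158610767-158615748, plus strand), 11 events were listed and 0 of them in all 6 libraries. Saline libraries 1, 2 and 3 listed 2, 5 and 2 events, and morphine libraries 1, 2 and 3 listed 2, 2 and 4. The saline mean was 3 ± 1.73 and the morphine mean 2.67 ± 1.15 (SD, n = 3), and the groups overlapped (p = 1 in a two-sided exact permutation test).

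Most events under the Slc32a1 identifier were not on its strand. The annotated start at 158610767 was listed in saline libraries 1 and 3 only, and the annotated end at 158615748 in saline libraries 1 and 3 and morphine library 1. The other 9 events lay on the minus strand, and saline library 2 and morphine libraries 2 and 3 listed events of this strand only. Over all genes 4.09% of events lay opposite to their gene. It was 22.7% in the 7 genes, where all such events but 1 belonged to Slc32a1. In the lists as a whole, as given for Gabbr1, an opposite-strand start or end mostly stood in place of one on the gene's own strand. The Slc32a1 start missing from 4 libraries is therefore no measure of Slc32a1 messenger RNA.

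Part of the minus-strand events shared exon boundaries with a neighbouring annotated gene. Gm14204 (ENSMUSG00000086496, a processed transcript without a coding sequence, chr2:158595472-158610723, minus strand) starts 44 bases upstream of the Slc32a1 start and runs in the opposite direction. Of the 9 minus-strand events, 6 had an exon boundary of Gm14204. Its exon boundary 158610528 was found in saline library 2 and morphine libraries 1 and 3, and its boundary 158596512 in saline library 2 and morphine libraries 2 and 3. Under the identifier of Gm14204 itself, 0 events were listed in any library. Starts that used boundary 158610528 reached out to 158610769 and 158610770, that is, into the first bases of Slc32a1. Another minus-strand start, with the splice-side position 158610900, lay inside the first exon of Slc32a1 and was listed in morphine libraries 2 and 3. Its exon, which reached out to 158610996 or 158611001, overlaps a second minus-strand neighbour, the antisense gene Gm14205 (ENSMUSG00000087563, chr2:158610910-158611820), which also had 0 events under its own identifier.

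The sequence between the starts of both genes is shown because starts on both strands were listed there. It is chr2:158610508-158610786 of GRCm38.p6 from RefSeq, plus strand, 5′ to 3′. Capitals mark the 43 bases between the annotated starts. Lower case before them covers the longest annotated first exon of Gm14204 and 20 bases beyond it, and the 20 bases after them are the first of Slc32a1.
Slc32a1 and Gm14204 starts: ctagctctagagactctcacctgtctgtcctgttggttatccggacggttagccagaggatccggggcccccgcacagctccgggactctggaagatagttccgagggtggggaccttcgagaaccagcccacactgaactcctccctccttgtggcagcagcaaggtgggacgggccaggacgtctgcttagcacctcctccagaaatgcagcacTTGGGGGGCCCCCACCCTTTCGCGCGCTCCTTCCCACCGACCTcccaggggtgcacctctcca
On the minus strand, the bases that follow boundary 158610528 are GT, the usual first bases of an intron.

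**Figure D4:**
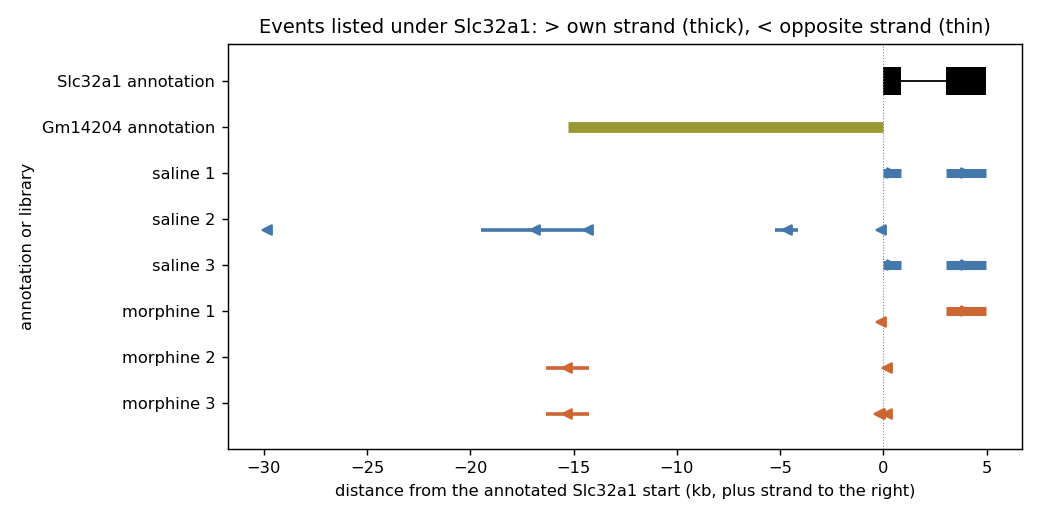
Events under the Slc32a1 identifier in each library (rows) by distance from its annotated start (horizontal axis, kb), with both annotated genes above. Thick bars mark the gene's own strand, found in saline libraries 1 and 3 and morphine library 1, and thin lines with left-pointing arrowheads mark the opposite strand, found in the other 3 libraries and in morphine library 1.

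RefSeq promoter windows, from 250 bases before to 50 bases after the start, were matched for all 7 genes. They held 12 (Gabra4) to 42 (Gphn) CG pairs, against a median of 7 in all 32851 windows. The letters TATAAA, on either strand, were found in 1 of the 7, Gad1, and in 13.6% of all windows. CCAAT was found in 3 of the 7 and in 37.4% of all windows, and GGGCGG in 5 of the 7 and in 35.7% of all windows. These are matches of letters and not binding sites.

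No event of the 7 genes separated the groups. Of the 44 events, 0 were listed by the 3 libraries of one group while missing from those of the other, against 0.658% of events over all genes, 0.277% in saline and 0.381% in morphine. The nearest were the Slc32a1 start on its own strand (saline libraries 1 and 3, no morphine library) and the minus-strand start and end at 158610900 and 158596512 (morphine libraries 2 and 3, with no saline library listing them as a start or end).

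No difference in the number of events per library was found between the groups. Together, the 7 genes had 25, 26 and 23 events in saline libraries 1, 2 and 3 and 27, 22 and 21 in morphine libraries 1, 2 and 3. The means were 24.7 ± 1.53 and 23.3 ± 3.21 (SD, n = 3), and the groups overlapped (p = 0.7 in a two-sided exact permutation test, where 3 against 3 libraries can give no less than 0.1). Per 1000 events of a library, the 7 genes held 0.436 in saline and 0.389 in morphine on average. In each of the 7 genes the counts overlapped between the groups, and over all genes they did not overlap in 2.77%. By gene, the exact permutation p was 0.8 for Gphn and 1 for the other 6. Among the latter, Gad1, Gad2, Gabra4 and Gabbr1 had the same count in every library, so their value was fixed and tests nothing. With Benjamini-Hochberg adjustment over all 16154 genes, each of the 7 exact permutation values was 1. Per library there were 20.7 ± 0.577 starts and ends in saline against 20 ± 2 in morphine (SD, n = 3), with p = 0.8 by the same exact test. For skipped exons, retained introns and alternative exon ends this p was 1 each.

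**Figure D5:**
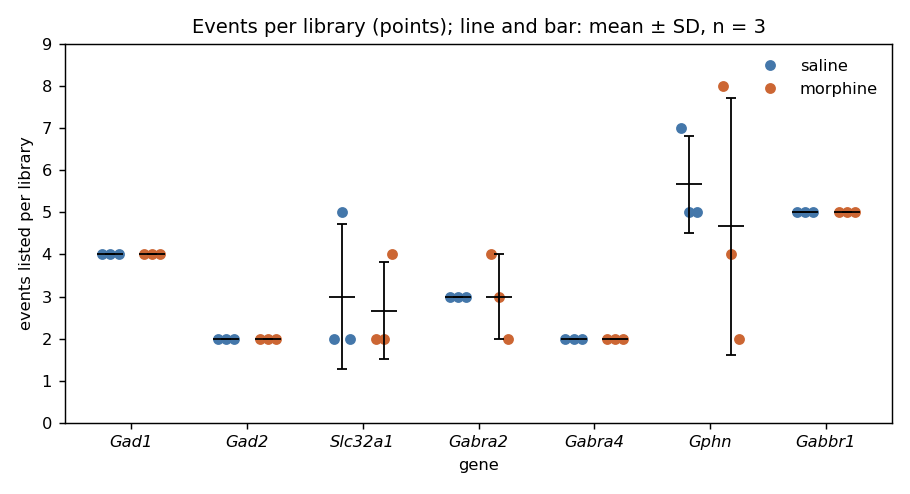
Events listed per library (vertical axis) for each gene, with a point per library and the mean ± SD of 3 libraries. Points of both groups coincide for Gad1, Gad2, Gabra4 and Gabbr1, and Gphn has the widest spread, from 2 to 8.

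For context, 50 other genes of the GABA synapse were looked up, among them the other GABA-A subunits, Gabbr2 and its auxiliary Kctd subunits, the GABA transporters and degrading enzymes, chloride transporters and partners of gephyrin. Of these, 49 were matched in the annotation, 48 were listed in at least 1 library and 42 in all 6. They carried 301 events, of which 97 (32.2%) were listed in all 6 libraries and 21 (6.98%) lay opposite to the gene. Of the 301, 0 separated the groups as defined above, beside the 0.658% of all events. Their events numbered 158, 172 and 164 in saline libraries 1, 2 and 3 and 169, 155 and 148 in morphine libraries 1, 2 and 3, and the groups overlapped (p = 0.4 in a two-sided exact permutation test). Among the genes with most events were Iqsec3 (20 events), which encodes an exchange factor that binds gephyrin, and Mocs1 (18 events), which encodes an enzyme of the molybdenum cofactor pathway in which gephyrin also acts. Gabbr2, the partner of Gabbr1 in the GABA-B receptor, had 2 events, and both were listed in every library.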

How the data were processed

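The 6 NAc libraries, 3 in each group, were grouped by their treatment label. The study's methods name a directional library kit, HISAT2 for mapping and StringTie for transcript assembly. Whether an annotation guided the assembly is not stated there. The genome build is not given in the sources used here. Positions were compared with GENCODE M21 on GRCm38, which held 99.2% of the gene identifiers.

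The authors deposited a list of events per library, in the layout of ASprofile. In those deposited lists a column headed FPKM holds a score, made by the authors in a way not given in the sources used here. Its values were whole numbers from -25 to 0, and it was not used. The deposited read count and FPKM values of long non-coding RNAs gave the relative depth. The authors' deposited log2 fold changes and adjusted p-values were not used.

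The included and skipped (or retained and spliced) entries of an event were merged. Events with the same class, gene, strand and position counted as 1, where the position of a start or end is its splice-side coordinate. The 12 event classes formed 4 families. Two-sided exact permutation tests compared the groups in events per library, and p-values by gene were adjusted over all listed genes, where the written plan had them adjusted over the 7. Counting and tests were tested on simulated data.

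The members, gene lists and rules were chosen with earlier results of these data known. By rule, the text names all 7 members, their events that separate the groups, those listed in most or all libraries, and the 3 wider-list genes with most events, of which 1 is not reported here. Other events were named after their values were seen. Alternatives were other event identities, the gene's own strand only, unmerged entries, annotated positions only, scaling to total events, and leaving out each library. The scripts ran under Python 3.11.15 with scipy 1.17.1, pandas 2.3.3 and numpy 2.4.6, and figures were drawn with matplotlib 3.10.9.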

Additional observations from a re-analysis of the deposited data

How the results depend on the processing

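Depth and assembly limit what a list can hold, and 3 libraries per group allow no p under 0.1, so no setting could pass a threshold. Differences in events per library (morphine minus saline) were small and moved with the settings. Under other ways of counting events with all libraries kept, 23 of 24 differences that were not 0 kept their sign and 1 became 0, while 8 moved by over 1.5 times in size, and 5 of 28 that were 0 left 0. At annotated positions only, the difference was -2.33 for all 7 genes, -2 for starts and ends, -1 for Slc32a1 and -0.667 for Gabra2, and it was 0.333 for Gabra2 with entries unmerged. Scaled to listed events, all 6 that were not 0 kept their sign and all 7 that were 0 became negative. With a library left out, 31 of 36 that were not 0 kept their sign, 2 became 0 and 3 reversed, and 14 of 42 that were 0 left 0, among them exon skipping (-0.833 to 0.667), Gabra2 (-0.5 to 0.5) and retained introns (-0.333 to 0.333). The difference ran from -3.17 to -0.167 for all 7 genes. It ran from -1 to 0.667 for Slc32a1, where it turned positive without saline library 2. For Gphn it ran from -2.67 to 0.333 and for starts and ends from -1.67 to 0.333, and both turned positive without morphine library 3. The number of events that separated the groups ran from 0 to 2. It was 1 without saline library 2 (the Slc32a1 start) and 2 without morphine library 1 (the minus-strand start and end under Slc32a1), where 1.95% and 2.05% of all events did so. The number of events listed in all libraries ran from 15 to 16. No paired analysis was possible because the labels give no replicate numbers that the groups share.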
